A study of Mus musculus with 7 samples.

Results

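The carbonic anhydrase genes were described in atrioventricular canals, the narrow segment of the embryonic mouse heart in which the first valve tissue forms. The members were 10 genes named by symbol (Car2, Car3, Car4, Car5b, Car7, Car8, Car9, Car11, Car12 and Car14), out of 23284 genes with a row in the count files. All 10 had a row and passed the filter on low counts. They were selected on the read counts of these same libraries, with the difference between null and wild type known, so their differences between genotypes are given as a description and support nothing further. Another 6 genes of the family with a row (Car1, Car5a, Car6, Car10, Car13 and Car15) are reported beside them.

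Canals came from outbred NMRI embryos at 18 to 23 somites. The stage label begins at embryonic day 9.0, while the sample titles read day 9.5. One group was wild type (3 libraries, replicates 2 to 4) and the other Hand2 d/d (4 libraries, replicates 1 to 4), which lacks the whole coding part of Hand2 after Cre-mediated deletion in the germline. Since the deletion is in the germline, it is not limited to the canal. Each library was made from a pool of 4 canals, with somite stages and sex ratios balanced between pools, so each replicate is a pool and not an embryo. Another wild-type pool had RNA of lower quality and was not sequenced, per the labels.

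Carbonic anhydrases are zinc enzymes that interconvert carbon dioxide and water with bicarbonate and a proton. The family members differ mainly in where they work: in the cytosol, in mitochondria, on the cell surface facing outward, or in secretions, and a few related proteins have lost the catalytic activity. In embryonic blood and heart they take part in carbon dioxide transport and in the control of pH, and the surface enzymes Car9 and Car12 are known as genes switched on at low oxygen.

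The 7 libraries held 27905601 to 44860753 reads in genes. Levels are in CPM, the reads of a gene over all reads in genes on the usual common scale, and 3 reads, taken as the floor for counting error, were 0.0669 to 0.108 CPM. Hand2, the deleted gene, had 7, 26, 10 and 14 reads in null replicates 1 to 4 and 2123, 1224 and 1194 in wild-type replicates 2 to 4, so all 7 libraries matched their labels. The canal markers Tbx2, Tbx3 and Bmp2 were present in every library, with Tbx2 at 3.60 to 10.1 CPM and Bmp2 at 51.0 to 123 CPM. The foregut markers Epcam (0.428 to 4.88 CPM) and Foxa2 (0.0346 to 0.304 CPM) were low. The keratins of the same list were not, with Krt8 at 80.9 to 182, Krt18 at 72.1 to 187 and Krt19 at 85.1 to 561 CPM. The summed level of 13 erythroid markers was 5658 to 14632 CPM in the null against 9404 to 22215 CPM in wild type.

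In the null canals 2 cell-surface enzymes of low abundance, Car9 and Car12, were more than 5-fold higher, the abundant surface enzyme Car14 was 1.58-fold higher, and the cytosolic Car3 was 1.93-fold lower. The other 6 members did not pass the threshold. A gene passed at an adjusted p under 0.05 in edgeR's quasi-likelihood fit over 14290 genes. Thus 3 members passed higher and 1 lower, where 6.24% of all tested genes were called, 4.11% higher and 2.13% lower. The CPM ranges of the genotypes did not overlap for the same 4 members, a separation seen in 21.8% of all tested genes, 11.6% higher and 10.3% lower. The median log2 fold change was 0.06 over the 10 members and 0.02 over all tested genes. In bulk tissue, fewer cells of a type and less RNA per cell cannot be told apart.

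**Figure D1:**
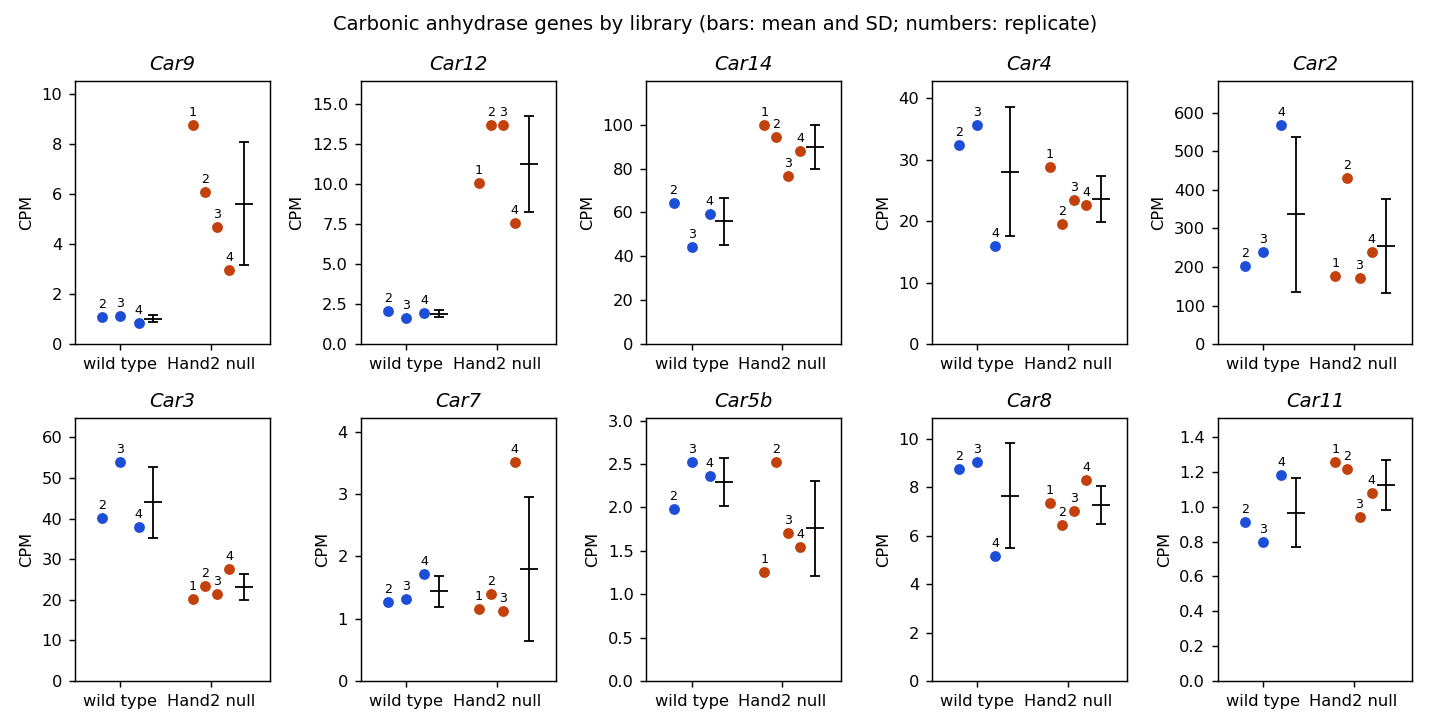
Expression (CPM, vertical axes from 0) of the 10 listed genes in each library, with the replicate number above each point and the mean and SD to the right of each group. Car9, Car12 and Car14 sit higher in all 4 null libraries than in all 3 wild-type libraries, Car3 sits lower, and the remaining genes overlap.

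Of the surface enzymes, Car9 and Car12 are single-pass membrane proteins with the catalytic domain outside the cell. Car9 was at 8.76, 6.06, 4.67 and 2.98 CPM in null replicates 1 to 4 and at 1.09, 1.11 and 0.860 CPM in wild-type replicates 2 to 4. In reads this was 116 to 327 in the null against 24 to 49. All null libraries lay above all wild-type libraries, and the null libraries themselves spread nearly 3-fold, with replicate 1 highest and replicate 4 lowest. The means were 5.62 ± 2.44 CPM (SD, n = 4) and 1.02 ± 0.138 CPM (SD, n = 3), and the fitted log2 fold change was 2.44 (SE 0.381). It stayed between 2.10 and 2.65 when any 1 library was left out. Car9 overlaps the span of Tpm2 on the other strand without shared exon bases, and Tpm2 had a log2 fold change of 0.42 (SE 0.144, not called).

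Car12 was at 10.1, 13.6, 13.7 and 7.55 CPM in null replicates 1 to 4 and at 2.10, 1.66 and 1.94 CPM in wild-type replicates 2 to 4. Again no null library overlapped a wild-type one, and null replicate 4 was the lowest of its group, as for Car9. The means were 11.2 ± 2.98 CPM (SD, n = 4) and 1.90 ± 0.220 CPM (SD, n = 3). The fitted log2 fold change was 2.54 (SE 0.261), between 2.41 and 2.68 with 1 library left out. Per kilobase of transcript the 2 genes were at like levels in wild type, 0.504 for Car9 and 0.510 CPM per kilobase for Car12, and the ratio of Car12 to Car9 ran from 0.626 to 1.59 over the null libraries, against 0.817 to 1.22. The order of the null libraries thus differed between both genes, with replicate 1 the only one in which Car9 exceeded Car12 per length.

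Car14, a membrane enzyme with an outward catalytic domain known from heart muscle, was the most abundant surface member. It was at 99.9, 94.3, 76.7 and 87.8 CPM in null replicates 1 to 4 and at 64.3, 44.1 and 59.5 CPM in wild-type replicates 2 to 4. The lowest null value lay above the highest wild-type value. The means were 89.7 ± 9.98 and 56.0 ± 10.6 CPM (SD, n = 4 and 3), a log2 fold change of 0.66 (SE 0.158). Its call was less stable than those of Car9 and Car12: it held in 2 of the 7 fits with 1 library left out, and was lost without null replicate 1 or 2 or any 1 wild-type library, with log2 fold changes of 0.53 to 0.77. Of 10 heart muscle markers 1 passed higher and none lower, against 4.11% and 2.13% of all tested genes. Their summed level, of which Actc1 was the largest part, overlapped at 22653 to 25499 CPM (null) against 20948 to 25071 CPM (wild type). By CPM ranges, 1 marker separated higher and 1 lower (11.6% and 10.3% of all tested genes). The lower one was Tnni1, at 2077 to 2353 against 2728 to 2830 CPM (log2 fold change -0.33, SE 0.125, not called). The marker that passed was Myh7, a myosin heavy chain, at 1178 ± 228 and 666 ± 27.3 CPM (SD, n = 4 and 3) without overlap (log2 fold change 0.80, SE 0.152, edgeR adjusted p = 0.0100). The part of heart muscle RNA in the level of Car14 was not tested. Car14 shares 445 exon bases with Aph1a on the other strand, and without strand reads there cannot be told apart. Aph1a itself was at 39.7 ± 5.58 and 41.3 ± 13.5 CPM (SD, n = 4 and 3), with a log2 fold change of -0.07 (SE 0.210).

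Car4, held on the outer surface by a lipid anchor and known from capillary endothelium, was at 28.8, 19.6, 23.5 and 22.6 CPM in null replicates 1 to 4 and at 32.5, 35.7 and 16.1 CPM in wild-type replicates 2 to 4. Wild-type replicate 4 lay below every null library and the other two above, so the groups overlapped (log2 fold change -0.26, SE 0.254). Of 10 endothelial markers 5 passed higher (4.11% of all tested genes did) and none lower, and their summed level was 477 to 538 CPM in the null against 317 to 366 CPM. The other 5 did not pass. Cdh5 had a log2 fold change of 0.51 (SE 0.171), at 49.4 to 63.9 against 33.0 to 47.2 CPM without overlap. Emcn was at 0.34 (SE 0.193), Tek at 0.08 (SE 0.218), Nfatc1 at -0.09 (SE 0.161) and Npr3 at -0.18 (SE 0.236). The part of these cells in the level of Car4 was not tested. Car15, another anchored enzyme outside the listed members, stayed under 0.8 CPM in every library (-0.26, SE 0.507).

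Promoter sequence was looked up because Car9, Car12 and Car14 moved in the same direction. RefSeq promoter windows on GRCm38.p6 (250 bases before to 50 after the gene start) were matched for 7 of the 10 members, and Car2, Car3 and Car8 were not matched. The hypoxia response core bound by HIF factors was searched as ACGTG and GCGTG, and the E-box, the motif class bound by HAND2 and other basic helix-loop-helix factors, as CANNTG, all on both strands. CACGTG, where present, matches both the first and the last of these. The 250 bases before the start are shown for the 3 surface enzymes that were higher, 5′ to 3′ on the strand of the gene, with ACGTG matches in capitals (printed as CACGT where the match is on the opposite strand). They lie at chr4:43506776-43507025 on the plus strand for Car9, chr9:66713436-66713685 on the plus strand for Car12 and chr3:95904686-95904935 on the minus strand for Car14.
Car9: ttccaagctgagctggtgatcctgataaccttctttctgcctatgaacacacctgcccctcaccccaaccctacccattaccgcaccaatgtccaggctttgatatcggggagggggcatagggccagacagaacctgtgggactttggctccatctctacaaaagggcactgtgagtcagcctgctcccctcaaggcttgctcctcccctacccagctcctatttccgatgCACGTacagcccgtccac
Car12: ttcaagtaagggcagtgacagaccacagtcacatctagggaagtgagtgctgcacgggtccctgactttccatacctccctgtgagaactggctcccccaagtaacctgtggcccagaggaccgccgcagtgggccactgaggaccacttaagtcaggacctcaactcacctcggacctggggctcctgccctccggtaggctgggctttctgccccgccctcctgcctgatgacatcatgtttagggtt
Car14: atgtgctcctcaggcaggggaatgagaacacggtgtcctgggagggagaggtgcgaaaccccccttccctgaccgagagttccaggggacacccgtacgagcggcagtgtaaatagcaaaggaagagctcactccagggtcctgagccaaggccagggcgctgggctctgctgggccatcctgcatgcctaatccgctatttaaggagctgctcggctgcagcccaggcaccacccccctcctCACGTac

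Car9 held 1 ACGTG match, beginning 18 bases before the start, and Car14 held 1, beginning 7 bases before it. The Car12 window held no match to any of the 3 motifs. Among the other members, Car4 had an ACGTG match just after its start, and GCGTG matches were found for Car5b, Car7 and Car11. In all, 3 of the 7 matched members had ACGTG, 3 had GCGTG and 5 had CANNTG in at least 1 window. These members had 10 windows between them and were counted by gene, whereas the background was counted by window, so the shares differ in unit. Over 32851 windows of the same length, 19.6% held ACGTG, 32.4% GCGTG and 72.3% CANNTG. These matches describe letters in a window and say nothing of binding.

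The genes whose values were most like those of Car12 over the 7 libraries, by the root mean square difference of centred log2 CPM among 14289 other tested genes, were Krt19 (0.14), Gipr (0.18), 1700001L05Rik (0.20), Lrrc24 (0.27) and P4ha2 (0.29). Each gene was centred on its mean over all 7 libraries, so the difference between genotypes stayed in the measure. Genes with a like fold change are therefore near by construction. Krt19 is an epithelial keratin, with means of 474 CPM in null and 88.0 CPM in wild type, and P4ha2 is a collagen prolyl hydroxylase. Those most like Car9 lay farther from it: Myct1 (0.31), 4933408B17Rik (0.32), Cox4i2 (0.32), Lrrc24 (0.33) and P4ha2 (0.33). Of these, 4933408B17Rik had means of only 0.475 CPM in null and 0.0614 CPM in wild type, the latter under the floor of 3 reads. Cox4i2, an oxygen-regulated subunit of the respiratory chain, had means of 99.2 and 21.7 CPM. Car12 was in place 19 from Car9, at a difference of 0.43, and Car9 in place 42 from Car12. Among the low-oxygen and cell type lists whose summed levels did not overlap between genotypes, the low-oxygen genes had 14 of 16 passing higher (13691 to 16254 against 7689 to 8817 CPM). That rise was known beforehand. The foregut list had 3 of 6 tested members passing higher (725 to 903 against 255 to 282 CPM), and the endothelial list 5 of 10 with the sums given for Car4, where 4.11% of all tested genes passed higher. The neural list was low and separated the other way (6.38 to 9.59 against 13.8 to 41.9 CPM), with 1 of 4 tested members, Tubb3, passing lower. The 3 foregut members were the keratins Krt8, Krt18 and Krt19, while the defining markers Epcam and Cdh1 overlapped between genotypes. The defining marker Foxa2, too low to be tested, overlapped too. Foxa1 and Shh, also untested, were at 0 in every wild-type library and reached 0.304 and 0.514 CPM in the null. The part of these lists in the values of Car9 and Car12 was not tested.

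**Figure D2:**
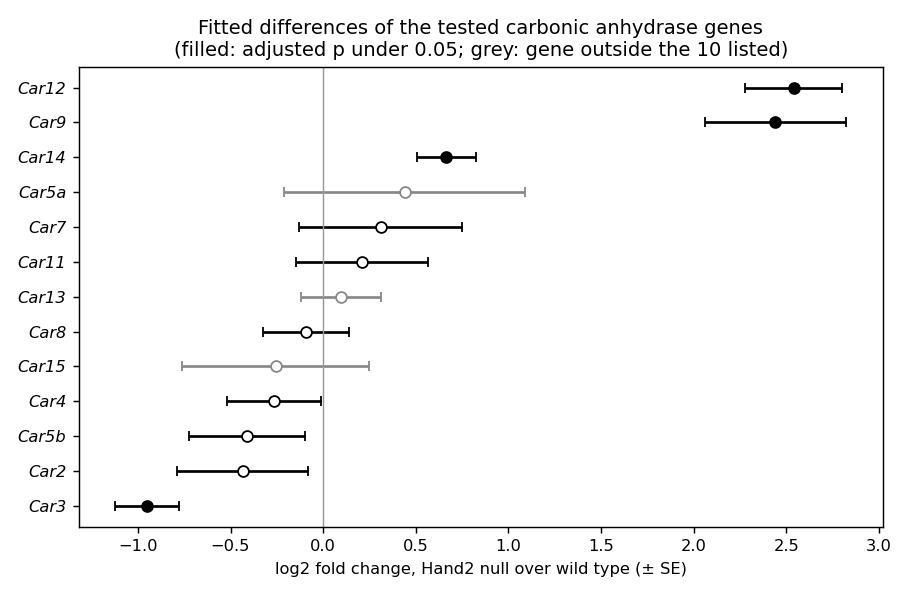
Fitted log2 fold change (null over wild type, horizontal axis) with its SE for the 13 tested Car genes, filled where the adjusted p was under 0.05 and grey for genes outside the 10 listed. Car12 (2.54) and Car9 (2.44) stand apart from the rest, which lie between -0.95 for Car3 and 0.66 for Car14.

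Of the cytosolic enzymes, Car3, a form of low catalytic activity known from skeletal muscle and fat, was the only listed member that passed lower. It was at 20.2, 23.4, 21.5 and 27.6 CPM in null replicates 1 to 4 and at 40.2, 54.0 and 37.9 CPM in wild-type replicates 2 to 4. The highest null value stayed below the lowest wild-type value. The means were 23.2 ± 3.21 CPM (SD, n = 4) and 44.0 ± 8.73 CPM (SD, n = 3), with a log2 fold change of -0.95 (SE 0.170), which ran from -1.06 to -0.76 with 1 library left out and passed in all 7 of those fits. In every null library Car3 was at 0.206 to 0.320 of the per-length level of Car14, against 0.637 to 1.25 in wild type.

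Car2, the fast cytosolic enzyme of red cells and many other tissues, was the most abundant member in all 7 libraries. It was at 177, 432, 172 and 238 CPM in null replicates 1 to 4 and at 201, 240 and 568 CPM in wild-type replicates 2 to 4. In each genotype 1 library stood far above the others, and the groups overlapped. The means were 255 ± 122 and 337 ± 202 CPM (SD, n = 4 and 3), with a log2 fold change of -0.43 (SE 0.355) that was not called. Without wild-type replicate 4 it was 0.15, and without that library and null replicate 2 it was -0.18.

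The same 2 libraries had the highest summed level of the 13 erythroid markers, at 14632 CPM in null replicate 2 and 22215 CPM in wild-type replicate 4, against 5658 to 13050 CPM elsewhere. Of the 11 markers detected, all were highest in wild-type replicate 4, 10 were highest of the null group in null replicate 2, and 8 had these libraries as their highest pair. Hba-a1 and Hba-a2 were at 0 in every library. As reads aligned to several places were left out of the counts, this 0 does not show that these genes were silent. The haem synthesis gene Alas2 was at 120 and 137 CPM in that pair, against 37.2 to 78.6 CPM elsewhere. Of 11 tested erythroid markers 1 passed lower in edgeR, where 2.13% of all tested genes did. DESeq2 called 2 lower and limma voom none. The marker that passed in edgeR was the erythroid factor Klf1 (log2 fold change -1.16, SE 0.298, edgeR adjusted p = 0.0426). It was at 7.34 CPM in null replicate 2, below the 8.43 and 10.4 CPM of wild-type replicates 2 and 3. Car1, the other red cell enzyme of the cytosol, had 0 to 11 reads per library. The part of erythroid RNA in the level of Car2 was not tested.

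**Figure D3:**
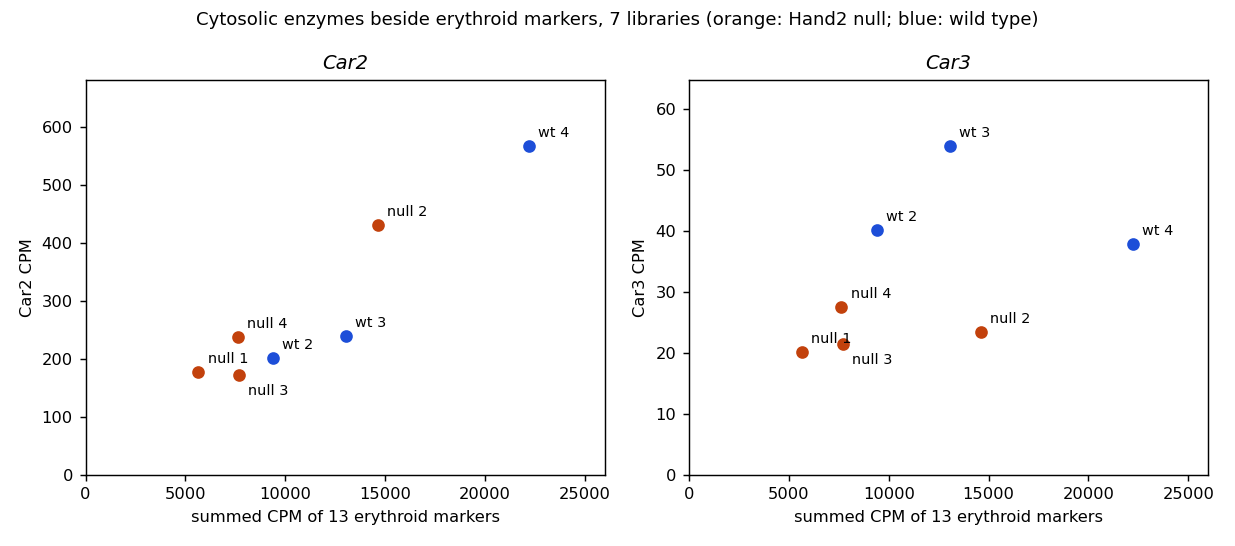
Car2 (left) and Car3 (right) in CPM against the summed CPM of 13 erythroid markers in the 7 libraries (orange null, blue wild type). For Car2, null replicate 2 (432 CPM) and wild-type replicate 4 (568 CPM) lie at the upper right. For Car3 the 3 wild-type libraries lie above the 4 null libraries. The erythroid sums of the genotypes overlap only in part, at 5658 to 14632 CPM in null and 9404 to 22215 CPM in wild type.

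Car7, a cytosolic enzyme known from neurons, was at 1.15, 1.40, 1.12 and 3.52 CPM in null replicates 1 to 4 and at 1.27, 1.31 and 1.72 CPM in wild-type replicates 2 to 4. Null replicate 4 alone stood out, and without it the log2 fold change of 0.31 (SE 0.437) became -0.25. Car13, a cytosolic enzyme outside the listed members, was at 5.93 to 9.65 CPM (null) against 6.40 to 8.89 CPM (wild type), a log2 fold change of 0.10 (SE 0.216).

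Of the mitochondrial enzymes, which supply bicarbonate inside the organelle, Car5b was at 1.26, 2.53, 1.71 and 1.54 CPM in null replicates 1 to 4 and at 1.98, 2.53 and 2.37 CPM in wild-type replicates 2 to 4. Null replicate 2 reached the wild-type values and the other null libraries lay below them (log2 fold change -0.41, SE 0.313, not called). Car5a, the form known from liver, had 5 to 16 reads per library and overlapped between genotypes.

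The related proteins have lost the catalytic activity. Car8, which binds the receptor that releases calcium from the endoplasmic reticulum, was at 7.34, 6.45, 7.01 and 8.32 CPM in null replicates 1 to 4 and at 8.74, 9.06 and 5.16 CPM in wild-type replicates 2 to 4, so the groups overlapped (log2 fold change -0.09, SE 0.230). Car11, a related protein without activity, was at 0.942 to 1.26 CPM (null) against 0.796 to 1.18 CPM (wild type), a log2 fold change of 0.21 (SE 0.357). Car10, of the same kind, and the secreted Car6 had at most 4 and 10 reads per library. Ptprg and Ptprz1, receptor phosphatases with a carbonic anhydrase-like outer domain, had log2 fold changes of -0.27 (SE 0.204) and 0.07 (SE 0.555). None of the 5 tested family genes outside the 10 passed in edgeR, and none did at an unadjusted p under 0.05, in DESeq2 or in limma voom.

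Per kilobase of transcript, the order in wild type was Car2 (188 CPM per kilobase), Car14 (32.7), Car3 (26.2), Car4 (22.3), Car13 (3.33) and Car8 (1.99), with all others below 1. The ranges of Car14, Car3 and Car4 overlapped over the wild-type libraries, while Car2 lay above and Car13 below them without overlap. In the null, Car14 (52.5) stood clear of Car4 (18.8) and Car3 (13.8), whose ranges overlapped, and Car12 (3.02) and Car9 (2.78) came next to Car13 (3.61) with overlapping ranges. Car9 and Car12 together made up 1.52% to 3.39% of the summed per-length level of the 16 Car genes in the null, against 0.238% to 0.526%. Car2 alone made up 47.7% to 70.6% in the null, against 53.7% to 80.1%.

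The 5 surface enzymes summed to 69.8 to 88.7 CPM per kilobase in the null, against 48.8 to 65.1, without overlap. The sum without Car14 overlapped, at 21.7 to 30.3 against 14.0 to 29.9. The cytosolic enzymes overlapped between genotypes, at 113 to 261 in the null against 141 to 345. Without Car2 their sum was 16.6 to 20.8 against 26.9 to 35.8, and this separation was that of Car3, since without both genes it was 4.39 to 5.07 against 3.58 to 4.73. Sums of the mitochondrial and of the related genes overlapped too.

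**Figure D4:**
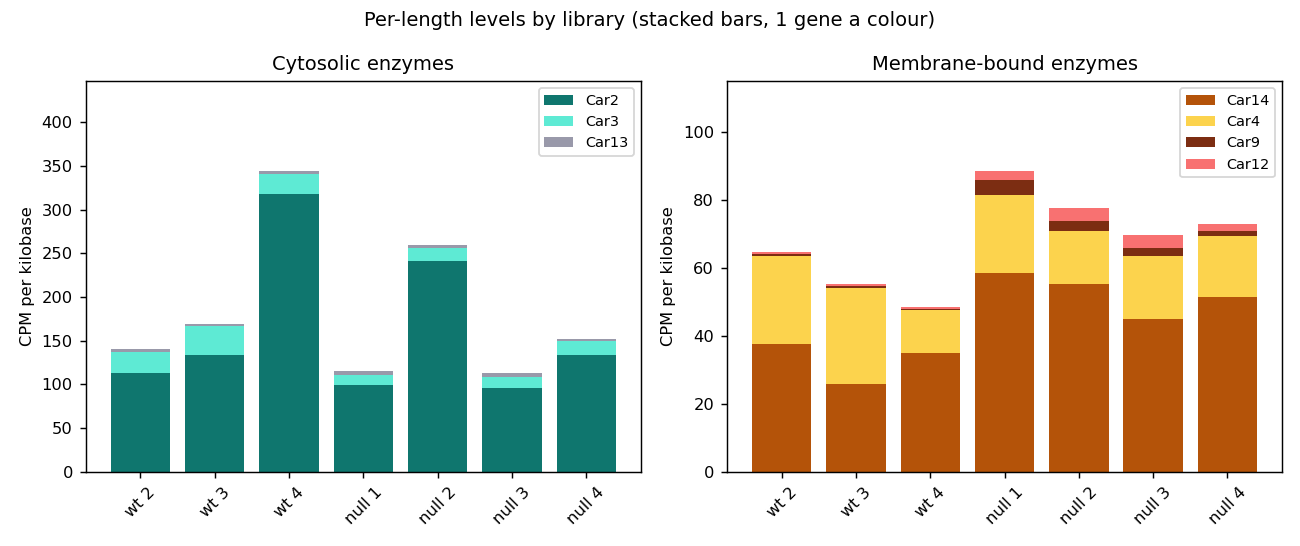
Per-length levels (CPM per kilobase of transcript, vertical axes from 0) of cytosolic and membrane-bound enzymes, stacked by gene for each library. Car2 makes up most of the left bars and is highest in wild-type replicate 4 and null replicate 2, and the right bars reach 69.8 to 88.7 in null against 48.8 to 65.1 in wild-type libraries (totals with the small share of Car15, which is not drawn).

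Genes that move or use bicarbonate and protons were counted from 6 lists drawn up by function. Of 64 tested genes 3 passed higher (4.69%) and none lower, against 4.11% and 2.13% of all tested genes. At an unadjusted p under 0.05, 10 were higher and 3 lower. The share of all tested genes at that looser threshold was not counted. These counts, and those of single lists below, thus have no background and cannot be set against 4.11%. DESeq2 called 4 higher and none lower (993 and 768 over all genes). In limma voom 3 and none passed (549 and 304 over all genes). Of 14 tested proton and lactate exporters, 2 passed higher. Bsg, the chaperone that brings lactate transporters to the surface, was at 982 ± 127 CPM (SD, n = 4) in null and 600.1 ± 8.15 CPM (SD, n = 3) in wild type, or 0.70 higher on the log2 scale (SE 0.148, edgeR adjusted p = 0.0175). Slc16a3, which exports lactate together with a proton, was at 333 ± 24.5 and 208 ± 33.6 CPM (0.67, SE 0.152, edgeR adjusted p = 0.0247). Both were higher in all 4 null libraries than in any wild-type library. Both lost the call without null replicate 1 or any 1 wild-type library, where the edgeR adjusted p was 0.0543 to 0.112.

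Of 8 tested enzymes that use bicarbonate, Pcx passed higher and none lower. Pcx, the mitochondrial pyruvate carboxylase, was at 28.2, 28.3, 16.1 and 29.2 CPM in null replicates 1 to 4 and at 13.6, 10.2 and 13.3 CPM in wild-type replicates 2 to 4 (log2 fold change 1.02, SE 0.213, edgeR adjusted p = 0.0164). The genotypes did not overlap, although null replicate 3 lay close to wild type. Its call was lost without null replicate 1 or wild-type replicate 2 or 3, where the edgeR adjusted p was 0.0616 to 0.0895.

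None of the other lists had a call in edgeR. Of 14 tested bicarbonate and anion exchangers, 1 was higher and 1 lower at an unadjusted p under 0.05 and none passed in DESeq2 or limma voom. The most abundant were Slc4a1, the red cell exchanger (39.1 against 51.1 CPM), and Slc4a7, a sodium bicarbonate transporter (34.5 against 33.5 CPM). Of 18 tested subunits and partners of the vacuolar proton pump, 4 were higher at an unadjusted p under 0.05, DESeq2 called 1 higher and limma voom none. The most abundant, Atp6v1g1 and Atp6v0e, had log2 fold changes of 0.05 (SE 0.130) and -0.10 (SE 0.136). Of 7 tested water and gas channels, 1 was lower at an unadjusted p under 0.05 and none passed in DESeq2 or limma voom, with Aqp4 at 22.0 against 18.6 CPM and Rhag, of the red cell membrane, at 14.8 against 22.1 CPM. Of 3 tested proton sensors none had an unadjusted p under 0.05 or passed in DESeq2 or limma voom, with Accn2 at 2.80 against 1.88 CPM.

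**Figure D5:**
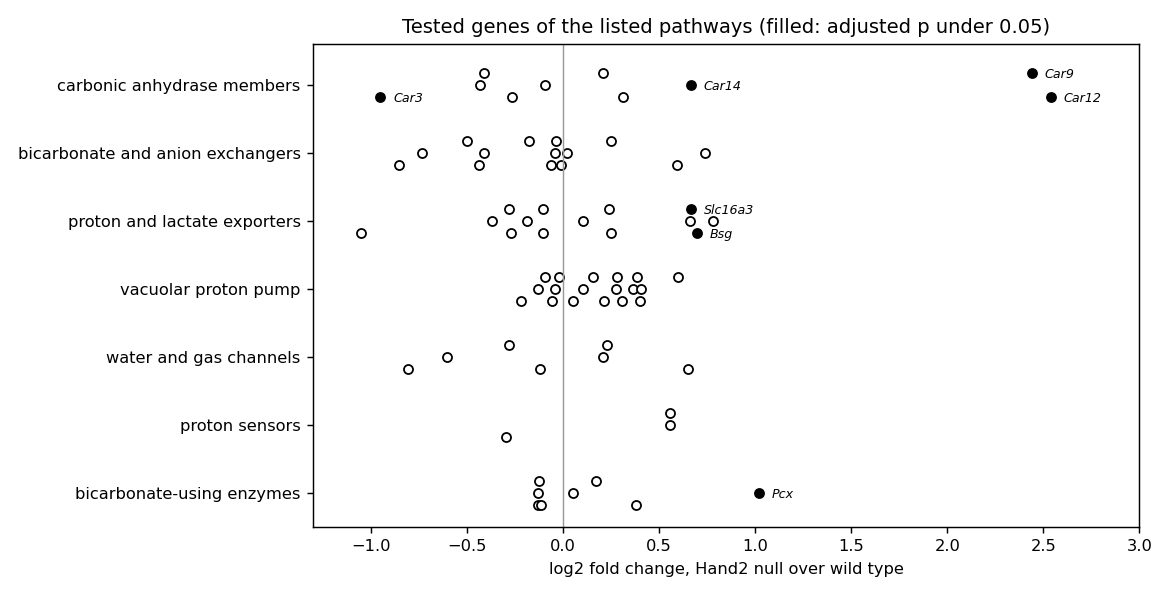
Fitted log2 fold change (null over wild type) of every tested gene of the 10 listed carbonic anhydrases and of the 6 lists of bicarbonate and proton genes, filled where the adjusted p was under 0.05. Car9 (2.44) and Car12 (2.54) lie to the right of every gene of the other lists, whose highest call is Pcx (1.02).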

How the data were processed

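RNA of 7 libraries was depleted of ribosomal RNA, amplified for 8 cycles and read as single 50-nt reads without strand, per the labels' protocols. The authors deposited whole-number read counts per gene symbol, 1 file per library. Build mm9 and the tools TopHat2 2.0.13, SAMtools and HTSeq come from the submitters' processing notes, and the gene annotation is not given in the sources used here. The 5 counter lines were left out (reads in no gene 7.31% to 14.2%, ambiguous 1.46% to 1.69%, aligned to several places 9.08% to 13.8%). Reads aligned to several places are therefore not in the counts, so genes with near-identical copies are uncertain. After PCR without molecular identifiers, the floor of 3 reads covers counting error only.

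CPM are reads over reads in genes. Per-length levels divide CPM by the longest spliced transcript of GENCODE M21 (GRCm38). Overlapping genes were found in RefSeq (GRCm38.p6), and their shared exon bases were counted in GENCODE M21.

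The main test was edgeR 4.0.16 (R 4.3.3) quasi-likelihood, with TMM, a filter at a minimum count of 10 and genotype as the only term, 5 residual degrees of freedom and Benjamini-Hochberg adjustment over 14290 genes. SE is the log2 fold change over the square root of F. DESeq2 1.42.0, limma 3.58.1 (voom), RLE scaling, other filters, a replicate block and leaving out libraries were alternatives. The replicate block was fitted to replicates 2 to 4 only, so null replicate 1 was not in it. P-values measure the spread between pools. On simulated counts for this comparison (14096 genes), 17.9% of 1.5-fold, 65.7% of 2-fold and 98.5% of 4-fold changes were recovered.

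Members and lists were chosen with earlier results of these data known. Named were all members, other family genes, Hand2, up to 4 called genes per pathway list (or the 2 most abundant), and the 5 genes nearest in pattern to the 2 members with the largest changes. Other genes named beside a result (cell type markers, overlapping genes, low-oxygen genes) were chosen after their values were seen. Of the proton sensors, 1 gene that the rule names is not reported here.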

Additional observations from a re-analysis of the deposited data

Results flagged for a closer look

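In the 4 null libraries, 37 genes (the family and the other named genes) were searched for 1 library far from the rest, and 3 were found; about 1 in 20 such groups does so by chance. Car7 was at 3.52 CPM in null replicate 4, against 1.40 CPM in the next library. Of 9 foregut and epithelial markers, 4 were highest of the null group in that library, among them Epcam (4.88 CPM, against 0.428 to 1.95), and 1, Krt19, was lowest there (368 CPM, against 464 to 561). Their part in the Car7 value was not tested. Car15 was at 0.761 CPM in null replicate 2, against 0.375 CPM in the next library, on 25 reads. Pcx was at 16.1 CPM in null replicate 3, against 28.2 CPM in the next lowest library.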

How the results depend on the processing

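Of the listed members, Car9, Car12 and Car3 kept their calls under all alternatives run (RLE scaling, DESeq2, limma voom, no filter, a mean of at least 50 reads, the replicate block, and each library left out). Car14 lost its call in 5 of the 7 fits with 1 library left out, and when the 2 libraries richest in erythroid RNA (null replicate 2, wild-type replicate 4) were dropped (0.70), so that 2 to 3 members passed higher. Fits with fewer libraries have fewer residual degrees of freedom.

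Over all genes, 587 passed higher and 305 lower. These were 993 and 768 in DESeq2, 761 and 578 with the replicate block, 298 and 123 without those 2 libraries, and 210 to 946 higher and 46 to 652 lower with 1 library left out. The fewest came when wild-type replicate 2 was dropped and the most when null replicate 3 was. Counts also moved by over 1.5 times without null replicate 1 (284 and 90), null replicate 2 (389 and 150) and wild-type replicate 3 (246 and 68). Pathway genes passing higher were 5 with the replicate block, 0 without both libraries, and 0 to 4 with 1 library left out, with 0 without null replicate 1 or wild-type replicate 2 or 3 and 1 without wild-type replicate 4.

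Genes without a call changed sign in some fits. With 1 library or those 2 left out, the log2 fold changes ran from -0.78 to 0.15 for Car2, -0.25 to 0.57 for Car7, -0.32 to 0.058 for Car8, -0.0077 to 0.22 for Car13, -0.60 to 0.47 for Ptprz1, -0.66 to 0.031 for Slc4a1, -0.091 to 0.15 for Slc4a7 and -0.91 to 0.11 for Rhag. The replicate block gave -0.0038 for Car13. The cause was not tested.

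Same-numbered libraries of the 2 genotypes correlated at -0.07, 0.26 and 0.17 (deviations from group means) for numbers 2, 3 and 4, and the labels name no shared source, so the numbers were not taken as pairs; not every library correlated best with its own number. The replicate block, fitted to replicates 2 to 4 only, gave the same member calls as the main fit of all 7 libraries. Against the fit of the same libraries without a block, it added the call of Car14 (edgeR adjusted p = 0.0292, against 0.0940). Over all genes it called 761 higher and 578 lower, against 284 and 90 without the block. At the depth of Car1, Car6 and Car10 differences were not detectable.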

Other observations

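On chromosome 3, Car13, Car1, Car3 and Car2 lie in a row, separated in RefSeq (GRCm38.p6) by pseudogenes and a long noncoding RNA only. Car3 was lower in the null (log2 fold change -0.95, SE 0.170), while its neighbours Car2 (-0.43, SE 0.355) and Car13 (0.10, SE 0.216) overlapped between genotypes and Car1 stayed under 0.3 CPM in every library. The difference between Car3 and its neighbours was not tested.

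Over the 64 tested genes of the 6 bicarbonate and proton lists, 11 had all null libraries above all wild-type libraries (11.6% of all tested genes did) and 5 the reverse (10.3%). The vacuolar pump had 6 and 1 of its 18 genes, the proton and lactate exporters 2 and 3 of 14, the proton sensors 2 and 0 of 3, the bicarbonate-using enzymes 1 and 0 of 8, the exchangers 0 and 1 of 14, and the water and gas channels 0 and 0 of 7. Summed levels of the proton and lactate exporters did not overlap, at 1490 to 1812 CPM (null) against 1090 to 1206 CPM (wild type), with Bsg the largest part. Those of the vacuolar pump separated narrowly, at 1961 to 2190 against 1785 to 1957 CPM. The pump gene nearest the threshold was Atp6v0a1, chosen after its value was seen, at 60.8 ± 13.7 CPM in null and 39.5 CPM in wild type (0.60, SE 0.168, edgeR adjusted p = 0.0560).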
